A study of Homo sapiens with 34 samples.

Results

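Peaks of 2 proteins were compared: TAZ4SA and YAP5SA, active forms of the paralogous transcriptional coactivators TAZ and YAP. In both, serines that LATS kinases phosphorylate are replaced by alanine. Peaks were taken on chromosomes 1 to 22 and X, and each list was split into peaks that overlapped a peak of the other list by at least 1 bp (shared) and peaks that did not (TAZ4SA-only and YAP5SA-only). The members were 4920 peaks, 1166 of TAZ4SA and 3754 of YAP5SA, of 10414 peaks in all 7 lists of the series. The split used positions alone, so fold enrichment, q and the overlap with other lists were not part of it, although a peak is listed only where its enrichment passed the caller's threshold.

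The study followed chromatin immunoprecipitation with sequencing in SW872 cells, a human liposarcoma line. All cells discussed here were SW872 cells stably transduced with a Flag-tagged construct or the empty vector. Those with a construct were precipitated with an anti-Flag antibody, so the constructs were expressed in addition to the YAP and TAZ of the line itself. The groups were TAZ4SA, YAP5SA and, for comparison, the sarcoma fusion proteins TAZ-CAMTA1 and YAP-TFE3, full-length CAMTA1 and TFE3, and IgG precipitates of cells with the empty vector (EV). Cells were grown to near confluence, except that the sample descriptions have the CAMTA1 cells below confluence where the methods for this assay make no exception. Each construct had 3 Flag libraries and 2 inputs. The libraries of a construct were pooled before peaks were called, so there was 1 list per construct, no value has a replicate error, and no comparison below has a test. Intervals are 95% Wilson intervals for shares and order-statistic intervals for medians. They cover counting error only and treat neighboring peaks as independent.

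YAP and TAZ are the effectors of the Hippo pathway. When the pathway is active, LATS kinases phosphorylate them and keep them in the cytoplasm. When it is not, they enter the nucleus and bind chromatin through TEAD transcription factors, because neither has a DNA-binding domain of its own. TEAD sites lie at promoters and, for the larger part, at distal enhancers. CCN1 (CYR61), CCN2 (CTGF) and ANKRD1 are the standard readouts of this activity, and AMOTL2, LATS2 and AJUBA are both targets of YAP and TAZ and regulators of the pathway.

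The core of the TEAD motif is GGAATG, which reads CATTCC on the other strand. To show what such sites look like, RefSeq promoters (GRCh38.p14, 250 bases before to 50 after the gene start) are given for 2 target genes that had a peak in both lists. They are the listed genes with a shared peak whose promoter held the motif more than once and whose sequence was given. Each sequence is read 5′ to 3′ along the gene, and capitals mark the motif.
CCN2, chr6:131951323-131951622, minus strand: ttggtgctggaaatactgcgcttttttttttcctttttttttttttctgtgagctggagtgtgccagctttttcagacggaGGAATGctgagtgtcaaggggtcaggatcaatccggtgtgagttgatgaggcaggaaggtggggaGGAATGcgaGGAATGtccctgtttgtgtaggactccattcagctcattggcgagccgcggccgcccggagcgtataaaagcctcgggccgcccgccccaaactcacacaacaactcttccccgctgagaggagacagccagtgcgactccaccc
ANKRD1, chr10:90921038-90921337, minus strand: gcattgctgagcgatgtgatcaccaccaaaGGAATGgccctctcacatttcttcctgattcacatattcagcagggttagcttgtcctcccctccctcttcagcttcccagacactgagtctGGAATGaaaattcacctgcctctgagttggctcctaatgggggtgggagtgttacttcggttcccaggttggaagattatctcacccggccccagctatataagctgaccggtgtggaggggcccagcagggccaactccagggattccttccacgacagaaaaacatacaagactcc
The CCN2 promoter held 3 matches and the ANKRD1 promoter 2. Of 35116 promoters in the table, 14.0% held at least 1 match, 1.36% at least 2 and 0.125% at least 3. Of the 12 listed target genes with a shared peak, 7 had a promoter in the table, and 5 of these held a match in at least 1 promoter. This count is per gene, while the shares above are per promoter. AJUBA, AMOTL2 and AXL each also had a promoter without a match. A match is a description of the letters and not a binding site. The peaks are placed on GRCh37 and the promoters on GRCh38, so whether a peak lay in its promoter window was not determined.

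The lists differed in depth. The caller's fold enrichment (fragments over a summit divided by the local background, with 1 added to each) and its p-value together fix the number of fragments at a summit, and a single whole number came out for 99.9% of peaks in each list. The TAZ4SA precipitate covered the genome with 2.33 fragments per base and the YAP5SA precipitate with 10.7, which the caller scaled by 0.307. At the mean background a TAZ4SA peak needed at least 11 fragments (3.61-fold) and a YAP5SA peak at least 40 (3.10-fold). The lists also differed in their narrowest peak (256 and 196 bp) and in their highest q (0.0707 and 0.0993). Depth, calling and protein therefore cannot be told apart in a difference between the lists. Some results below are also given within bins of strength, at a fixed fold or at equal list length. None of these removes the difference in depth.

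To ask how far the active paralogs occupied the same sites, the lists were overlaid. Of the 1166 TAZ4SA peaks 829 were shared (71.1%, 68.4 to 73.6), and 337 were TAZ4SA-only. Of the 3754 YAP5SA peaks 823 were shared (21.9%, 20.6 to 23.3), and 2931 were YAP5SA-only. Most of the smaller list thus lay inside the larger at their full lengths, which differ. The matching was close to 1 peak for 1 peak: 827 shared TAZ4SA peaks met a single YAP5SA peak and 2 met 2 of them, while 816 shared YAP5SA peaks met 1 TAZ4SA peak, 6 met 2 and 1 met 3. The split was rarely a matter of a few bases. Only 10 of 829 pairs overlapped by less than 100 bp, and 9 TAZ4SA-only peaks lay within 500 bp of a YAP5SA peak. Just inside the limit were TAZ4SA peaks with overlaps of 2, 30 and 35 bp and fold enrichments of 3.77, 3.82 and 4.55. Just outside were TAZ4SA peaks 57, 63 and 123 bp away, with fold enrichments of 4.10, 3.08 and 3.47. All 6 were weaker than the median TAZ4SA peak, at 5.99.

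Shared peaks were the stronger ones in both lists. In TAZ4SA the median fold enrichment was 6.78 (6.52 to 7.06) for shared and 4.51 (4.43 to 4.81) for TAZ4SA-only peaks, a ratio of 1.503. In YAP5SA it was 6.11 (5.89 to 6.25) for shared and 4.68 (4.60 to 4.75) for YAP5SA-only peaks, a ratio of 1.31. The same order held for the fragments behind the summits, with medians of 26 and 16 in TAZ4SA and 84 and 65 in YAP5SA. Shared peaks were also wider, with medians of 384 against 339 bp in TAZ4SA and 453 against 299 bp in YAP5SA.

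Ranked by −log10 q and cut into 10 bins of equal size, the lists lost overlap with strength in different ways. In TAZ4SA the strongest bin was 94.0% shared (88.2 to 97.1) and the next 95.7%, bin 5 80.2% and the weakest 31.9% (24.1 to 40.8). In YAP5SA the strongest bin was 59.6% shared (54.5 to 64.4), the next 35.5%, bin 5 16.5% and the weakest 7.73% (5.44 to 10.9). Of the strongest YAP5SA peaks 152 of 376 had no TAZ4SA peak, while of the strongest TAZ4SA peaks 7 of 117 had no YAP5SA peak. Each bin was set against the whole of the other list, 3754 peaks for TAZ4SA bins and 1166 for YAP5SA bins. Protein and list length therefore cannot be told apart here. Among the 100 highest-ranked peaks of each list, 38 overlapped one of the other 100, in both directions. The order was the same at a fixed fold, which does not match the lists, since their depth and the length of the partner list still differed. Among peaks of at least 10-fold enrichment, 10 of 203 TAZ4SA peaks (4.93%, 2.70 to 8.83) and 34 of 96 YAP5SA peaks (35.4%, 26.6 to 45.4) were in a single list.

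**Figure D1:**
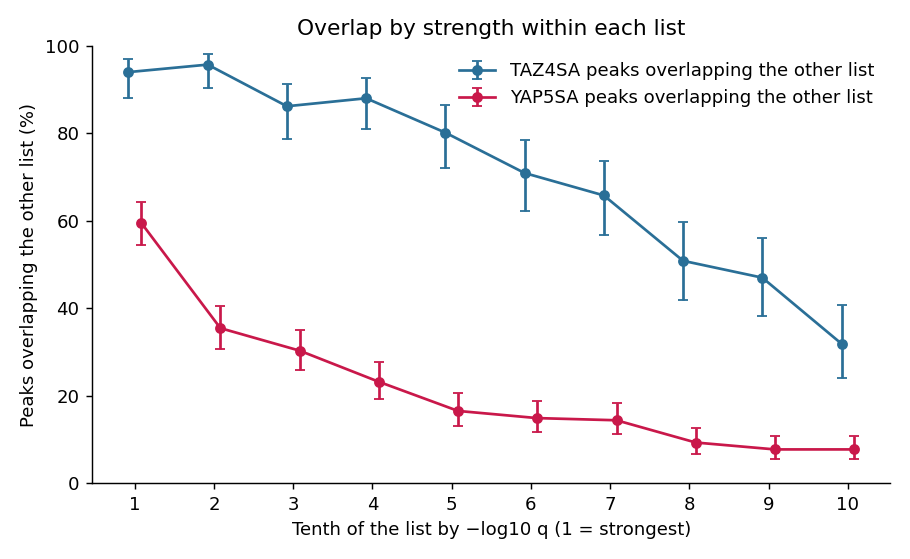
Share of peaks overlapping the other list (vertical axis, %) in 10 equal bins of each list ranked by −log10 q, with 1 as the strongest (horizontal axis). Points are shares and bars 95% Wilson intervals; TAZ4SA falls from 94.0% to 31.9% and YAP5SA from 59.6% to 7.73%.

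Most peaks of both lists, shared or not, had a fold that could have been called at the depth of the other list. Given their fold enrichment and the mean TAZ4SA background, 2462 of 2931 YAP5SA-only peaks (84.0%, 82.6 to 85.3) would have reached the p-value of the weakest TAZ4SA peak. So would 784 of 823 shared YAP5SA peaks (95.3%, 93.6 to 96.5) and 3246 of all 3754. In the other direction 330 of 337 TAZ4SA-only peaks (97.9%, 95.8 to 99.0) would have reached the weakest YAP5SA peak. So would 818 of 829 shared TAZ4SA peaks (98.7%, 97.6 to 99.3). The part of depth in peaks of a single list was not tested. This assumes the same fold in the other precipitate and the mean background, and takes no account of the scatter of low fragment numbers. With the YAP5SA list reduced to its strongest 1166 peaks, as many as TAZ4SA had, 41.8% of TAZ4SA and 41.3% of YAP5SA peaks were shared.

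Peaks found in a single list were not, as a rule, near misses. The median gap to the nearest peak of the other list was 106 kb for TAZ4SA-only and 269 kb for YAP5SA-only peaks, where the smaller TAZ4SA list leaves larger gaps. Within 1 kb lay 13 of 337 TAZ4SA-only peaks (3.86%) and 36 of 2931 YAP5SA-only peaks (1.23%). Within 50 kb lay 36.2% and 21.97%.

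At shared sites the summits, the positions of highest pileup, nearly coincided. Each of the 829 shared TAZ4SA peaks was paired with the YAP5SA peak of nearest summit. The median distance between summits was 23 bp (21 to 25), with an interquartile range of 11 to 51 bp. Summits lay within 25 bp in 54.0% of pairs, within 50 bp in 74.5%, within 100 bp in 85.4% and within 500 bp in 97.8%. Neither side was favored: the YAP5SA summit lay at the higher coordinate in 420 pairs, at the lower in 398 and at the same base in 11, and the median signed distance was 1 bp. The TAZ4SA summit fell inside the YAP5SA peak in 805 pairs (97.1%), and 365 TAZ4SA peaks lay wholly inside their YAP5SA partner.

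**Figure D2:**
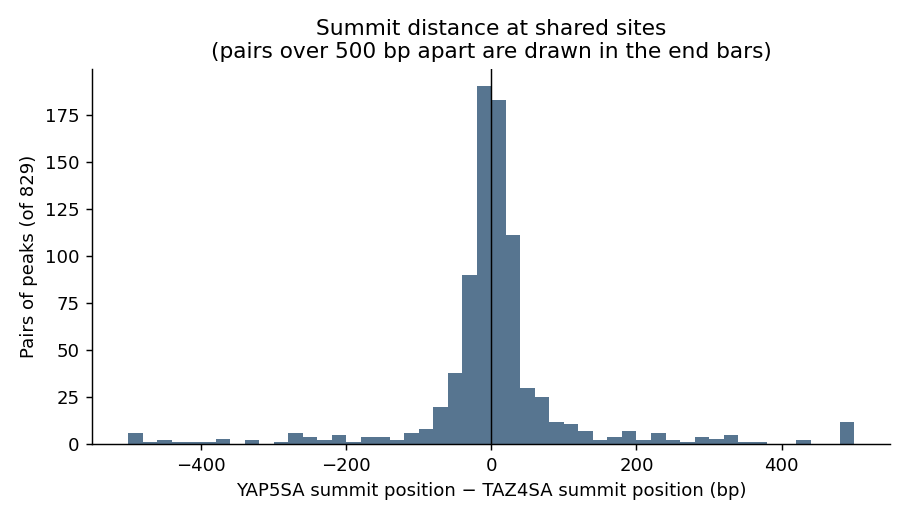
Signed distance from the TAZ4SA to the YAP5SA summit (horizontal axis, bp) against the number of pairs in bins of 20 bp (vertical axis) for the 829 pairs; distances over 500 bp are added to the end bars. The peak is centered at 0, with 420 pairs to the right and 398 to the left.

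The stronger the peak, the closer the summits. With the pairs cut into 4 equal bins, in the weakest bin by TAZ4SA fold enrichment the median distance was 43 bp (33 to 64), then 28 and 21, and in the strongest bin 13 bp (11 to 16). By YAP5SA fold enrichment the medians were 37.5, 28, 21 and 17 bp. Peak width made less difference, with medians between 21 and 25 bp across 4 bins of YAP5SA width. The 5 largest distances were 2338, 1535, 1212, 1020 and 950 bp. In 3 of these, the 2338, 1535 and 1020 bp ones, a narrow TAZ4SA peak lay inside a YAP5SA peak of 3965, 2150 or 1640 bp on chromosome 5. The widest of them, chr5:14035454-14039418, covered TAZ4SA peaks paired with DNAH5, a dynein heavy chain of cilia.

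Strength ranked alike at shared sites, but loosely. Spearman's rho of fold enrichment over the 829 pairs was 0.54, and 0.58 for −log10 p. It is given as a description: the points share the cell line and the caller, and neighboring sites share copy number. Of the 207 pairs in the strongest of 4 bins by TAZ4SA, 117 (56.5%) were also in the strongest of 4 by YAP5SA and 13 (6.28%) in the weakest. The median YAP5SA fold enrichment rose with the TAZ4SA bin, from 4.90 through 5.61 and 6.40 to 8.26. Within the pairs above the TAZ4SA median rho was 0.44, and within those below it 0.30. Of the 100 highest-ranked TAZ4SA peaks 94 overlapped a YAP5SA peak and 38 overlapped one of the 100 highest-ranked YAP5SA peaks, while 64 of those YAP5SA peaks overlapped a TAZ4SA peak. The TAZ4SA fold was the higher of the pair in most cases, and the YAP5SA fold was higher in 300 of 829 (36.2%, 33.0 to 39.5).

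**Figure D3:**
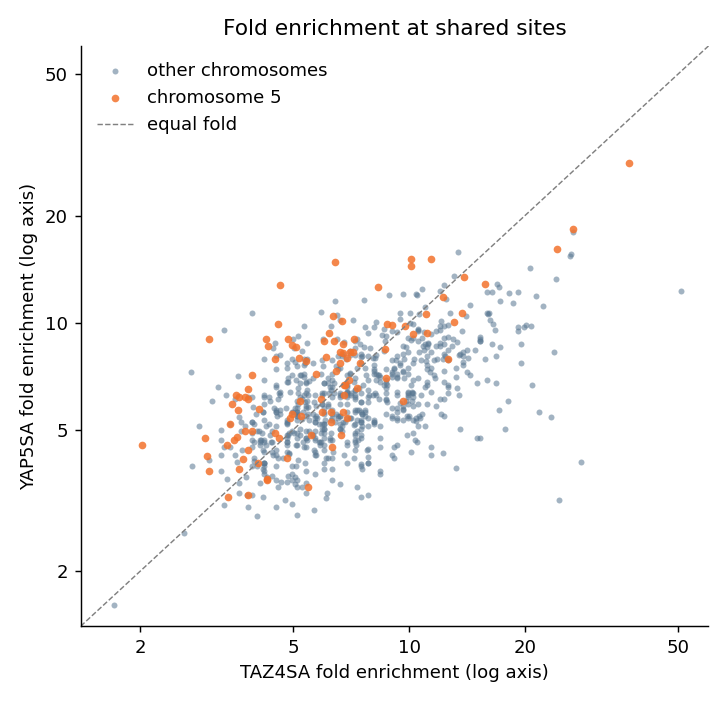
Fold enrichment over local background in TAZ4SA (horizontal, log axis) and YAP5SA (vertical, log axis) for the 829 pairs of shared peaks, with chromosome 5 in orange and equal fold as a dashed line. Points rise together with wide scatter (Spearman's rho 0.54), and 65 of 100 pairs on chromosome 5 lie above the line against 235 of 729 elsewhere.

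The 5 shared sites of lowest summed rank stood near the top of both lists. The site paired with TENM2, a teneurin cell-adhesion receptor, at chr5:165784591-165786011 ranked first by −log10 q in each, with fold enrichments of 26.7 in TAZ4SA and 18.3 in YAP5SA and summits at the same base. A site at chr5:1326721-1328794 ranked 3 and 2, with 37.4-fold and 28.1-fold. A site at chr7:5631089-5632013 ranked 7 and 4, with 26.7-fold and 17.9-fold, and overlapped a TAZ-CAMTA1 peak paired with FSCN1, which encodes the actin-bundling protein fascin. The site paired with ANKRD33B at chr5:10551317-10551977 ranked 4 and 8, and that paired with TBC1D2, a Rab GTPase-activating protein, at chr9:100985523-100985914 ranked 6 and 11. The summits of these 5 were 0 to 23 bp apart. All overlapped YAP-TFE3 peaks, and all except the TENM2 site overlapped TAZ-CAMTA1 peaks. Gene names here are those the study's annotation gives for a peak of exactly the same coordinates. That annotation names 321 of the 1166 TAZ4SA peaks and covers genes whose expression also changed in the study, so a peak without a name may still lie at a gene. The paper assigned peaks to the nearest gene feature. Distances to genes were not determined here, so a named peak may lie far from its gene. YAP5SA peaks are named through an overlapping TAZ4SA or TAZ-CAMTA1 peak.

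Other shared sites ranked very differently. Toward TAZ4SA the largest difference in rank, taken as a percent of the list, was at chr11:131211956-131212560, with 24.5-fold and rank 5 of 1166 in TAZ4SA and 3.17-fold and rank 2483 of 3754 in YAP5SA. A site at chr18:3261534-3262225, whose TAZ-CAMTA1 peak was paired with the myosin light chain gene MYL12B, was 27.9-fold in TAZ4SA and 4.06-fold in YAP5SA. The site paired with TNFRSF12A, the receptor for TWEAK, at chr16:3070872-3071210 was 13.2-fold and 3.91-fold. The other 2 were weaker in TAZ4SA and close to the end of the YAP5SA list, at chr9:140306251-140306641 with 7.30-fold and 3.46-fold and at chr6:152811968-152812618 with 7.51-fold and 3.24-fold. Toward YAP5SA, the DNAH5 peak at chr5:14036749-14037034 was 3.02-fold in TAZ4SA, rank 1124, and 8.98-fold in YAP5SA, rank 183, but its summit was 430 bp from that of the YAP5SA peak, which is 3965 bp wide and was the partner of 3 TAZ4SA peaks. The site paired with NXN, which encodes the oxidoreductase nucleoredoxin, at chr17:854946-855343 was 3.30-fold and 9.55-fold. A site at chr19:783205-783531, whose TAZ-CAMTA1 peak was paired with the splicing regulator PTBP1, was 3.91-fold and 10.6-fold, with summits 774 bp apart. Sites at chr7:100101231-100101556 and chr15:99664003-99664412 were 2.71-fold and 3.19-fold in TAZ4SA and 7.26-fold and 6.61-fold in YAP5SA, with summits 25 and 4 bp apart.

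The strongest TAZ4SA-only peak by −log10 q was paired with AJUBA, which encodes a LIM-domain protein that binds LATS kinases. It lay at chr14:23449667-23450184, with 63 fragments and 19.2-fold enrichment, rank 29 of 1166. The nearest YAP5SA peak was 1648 bp away and 6.32-fold. Both fusion proteins had a peak at the TAZ4SA-only site. Next were chr13:111137939-111138198 with 18.9-fold and the site paired with SALL3, a zinc-finger transcription factor, at chr18:76252022-76252617 with 17.4-fold. Their nearest YAP5SA peaks were 481 and 1299 kb away, and neither overlapped a fusion peak. A site at chr18:474840-475441 was 15.6-fold and overlapped TAZ-CAMTA1. A site at chr17:1391189-1391748 was 14.1-fold and overlapped both fusions, with the TAZ-CAMTA1 peak paired with the unconventional myosin gene MYO1C. The remaining 5 of the 10 highest-ranked TAZ4SA-only peaks lay on chromosomes 2, 8, 9 and 16 with fold enrichments of 10.7 to 13.4, and that on chromosome 2, at chr2:159314462-159315090, overlapped a TAZ-CAMTA1 peak paired with PKP4, a plakophilin. Of the 10, 5 overlapped both fusion lists, 2 TAZ-CAMTA1 alone and 3 neither. Over all TAZ4SA peaks 25.6% overlapped both, 7.46% TAZ-CAMTA1 alone, 19.0% YAP-TFE3 alone and 47.9% neither.

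Among the YAP5SA-only peaks the 2 highest by −log10 q were not strongly enriched. They lay at chr2:109815884-109816222 with 1.77-fold and at chrX:155260120-155260373 with 2.86-fold. At the chromosome X site 1198 fragments stood on a local background 39.0 times the mean, and for the chromosome 2 site no single number of fragments was recovered. Both overlapped peaks of TFE3 and YAP-TFE3. The other 8 were 10.6-fold to 13.3-fold. The strongest of them was chr11:130253349-130253881, with 182 fragments and 13.3-fold, 94.2 kb from the nearest TAZ4SA peak and overlapping TAZ-CAMTA1. Next was chr5:31987961-31988770 with 12.8-fold, 133 kb from a TAZ4SA peak and overlapping YAP-TFE3. A broad site at chr5:55641561-55643796 was 11.5-fold, overlapped both fusions, and its TAZ-CAMTA1 peak was paired with ANKRD55. A site at chr13:97907588-97908975 was 10.9-fold and overlapped both fusions, with the TAZ-CAMTA1 peak paired with MBNL2, a muscleblind splicing regulator. The site at chr1:8686396-8686815 was 11.8-fold and the most isolated of the 8, 3232 kb from the nearest TAZ4SA peak. Of all 10, 6 overlapped YAP-TFE3 alone, 2 both fusions, 1 TAZ-CAMTA1 alone and 1 neither. The 6 include the 1.77-fold and 2.86-fold sites. Over all YAP5SA peaks 23.8% overlapped YAP-TFE3 alone, 12.7% both, 4.95% TAZ-CAMTA1 alone and 58.6% neither. Counts of 10 peaks do not set the lists apart.

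Of 28 genes in a list of known YAP and TAZ targets, 13 were paired with a TAZ4SA peak, and 12 of these with a shared one. The 13 genes had 21 peaks, of which 18 were shared. Over all TAZ4SA peaks that carry a gene name the share was similar: 246 of 321 were shared (76.6%, 71.7 to 80.9), and of the 233 genes 163 had shared peaks alone, 51 had none and 19 had both. The matricellular genes CCN1 and CCN2 were 15.3-fold and 11.7-fold in TAZ4SA and 8.90-fold and 5.82-fold in YAP5SA, with summits 68 and 11 bp apart. The ANKRD1 peak was 9.32-fold in TAZ4SA and 6.97-fold in YAP5SA, 8 bp apart. CCN1 and CCN2 overlapped both fusions, and ANKRD1 overlapped TAZ-CAMTA1 alone.

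Apart from AJUBA, AMOTL2 and LATS2, every listed gene with a TAZ4SA peak had shared peaks alone. That held for genes that act at the membrane or outside the cell and for those of intracellular proteins. These were few peaks, and 76.6% of all TAZ4SA peaks with a gene name were shared. The 2 peaks of AXL, a receptor tyrosine kinase, were 19.2-fold and 10.4-fold in TAZ4SA and 12.2-fold and 5.29-fold in YAP5SA. F3, which encodes tissue factor, had 5.71-fold and 6.25-fold. NT5E, the ecto-5′-nucleotidase CD73, had 7.50-fold and 8.19-fold. CRIM1, a transmembrane regulator of BMP signaling, had 9.92-fold and 7.47-fold, with summits 4 bp apart. In F3 and NT5E the YAP5SA fold was the higher, and in AXL and CRIM1 the TAZ4SA fold. Over all pairs the YAP5SA fold was the higher in 300 of 829 (36.2%). Depth and protein cannot be told apart in such a difference. Among intracellular proteins MAFK, a small MAF transcription factor, had 8.58-fold in TAZ4SA and 6.69-fold in YAP5SA. The 2 peaks of ASAP1, an Arf GTPase-activating protein, had 12.7-fold and 6.61-fold in TAZ4SA and 9.12-fold and 5.18-fold in YAP5SA.

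The 3 peaks of listed genes in TAZ4SA alone were paired with AJUBA, AMOTL2 and LATS2, which regulate the Hippo pathway. They were 1 of 3 TAZ4SA peaks of AJUBA, 1 of 5 of AMOTL2 and 1 of 1 of LATS2. Over all TAZ4SA peaks 28.9% were TAZ4SA-only, and counts this small do not set these genes apart. The other 2 AJUBA peaks were shared, with 7.70-fold and 10.2-fold in TAZ4SA and 7.47-fold and 6.32-fold in YAP5SA. AMOTL2 encodes an angiomotin-family protein that binds YAP and TAZ. It had 5 TAZ4SA peaks, of 4.51-fold to 22.2-fold. Of these, 4 were shared, and the weakest was TAZ4SA-only and 402 bp from a YAP5SA peak. The 4 shared peaks had 11.1-fold, 9.55-fold, 5.03-fold and 8.40-fold in YAP5SA, in the order of their position. LATS2, which encodes a kinase that phosphorylates YAP and TAZ, had 1 TAZ4SA peak at chr13:21635502-21635893 with 31 fragments and 9.62-fold. Both fusions had a peak there, and the nearest YAP5SA peak was 9081 kb away. The gene with the most TAZ4SA peaks, CCND1, which encodes cyclin D1, was not on the list and was named after its count was seen. It had 6 peaks. The 3 shared ones were 6.71-fold, 17.3-fold and 13.5-fold, and the 3 in TAZ4SA alone 3.49-fold, 4.85-fold and 5.52-fold.

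To ask which sites of the active forms the fusions also had, each kind of peak was overlaid with the fusion lists. Of all TAZ4SA peaks, 33% overlapped TAZ-CAMTA1 and 44.6% YAP-TFE3. Of shared TAZ4SA peaks 333 (40.2%, 36.9 to 43.5) overlapped TAZ-CAMTA1 and 466 (56.2%, 52.8 to 59.6) YAP-TFE3, and of TAZ4SA-only peaks 52 (15.4%, 12.0 to 19.7) and 54 (16.02%, 12.5 to 20.3). Of all YAP5SA peaks, 17.6% overlapped TAZ-CAMTA1 and 36.5% YAP-TFE3. Of shared YAP5SA peaks 334 (40.6%, 37.3 to 44.0) and 465 (56.5%, 53.1 to 59.8) did, and of YAP5SA-only peaks 327 (11.2%, 10.1 to 12.3) and 904 (30.8%, 29.2 to 32.5). Thus YAP5SA-only peaks met YAP-TFE3 more often than TAZ-CAMTA1, while TAZ4SA-only peaks met the fusions about equally often, their intervals overlapping. The YAP-TFE3 list is longer than the TAZ-CAMTA1 list, and YAP5SA and YAP-TFE3 were scaled by the caller and TAZ4SA and TAZ-CAMTA1 were not, so family and technical set cannot be told apart.

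**Figure D4:**
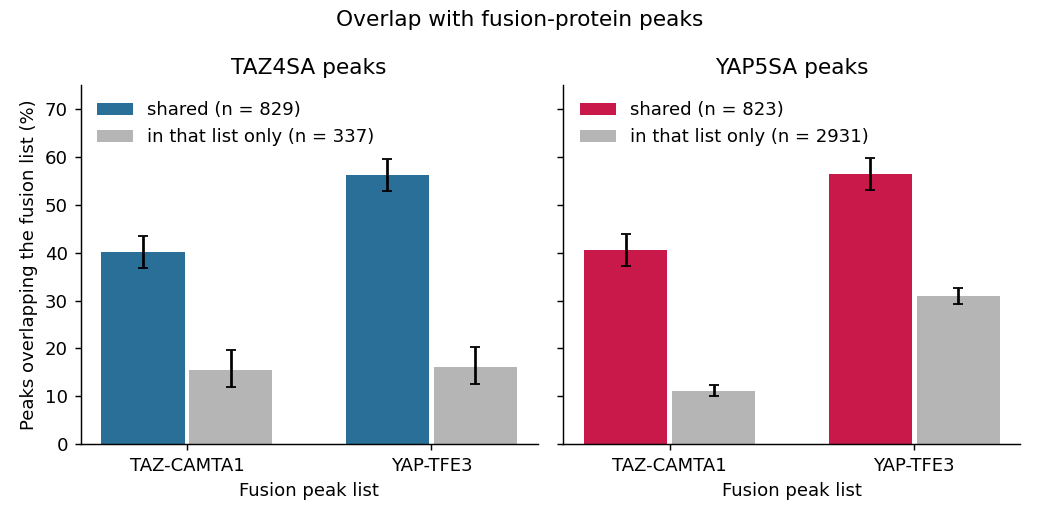
Share of TAZ4SA peaks (left) and YAP5SA peaks (right) that overlap TAZ-CAMTA1 or YAP-TFE3 peaks (vertical axis, %), for peaks shared between the active forms (color) and peaks in that list only (gray), with 95% Wilson intervals. Shared peaks are higher in all 4 pairs of bars, and the YAP5SA-only bar is 11.2% for TAZ-CAMTA1 and 30.8% for YAP-TFE3.

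Because shared peaks are stronger, the same shares were taken within 4 equal bins of each list by −log10 q. In the strongest bin of YAP5SA, shared peaks overlapped TAZ-CAMTA1 in 48.5% and YAP-TFE3 in 69.4%, and YAP5SA-only peaks in 23.4% (19.9 to 27.2) and 46.5% (42.3 to 50.8). In the weakest bin YAP5SA-only peaks overlapped TAZ-CAMTA1 in 5.90% and YAP-TFE3 in 24.2%. In the 3 weaker bins of TAZ4SA, shared peaks were again the higher for both fusions. In its strongest bin TAZ4SA-only peaks overlapped TAZ-CAMTA1 in 12 of 21 (57.1%, 36.5 to 75.5) and shared peaks in 143 of 271 (52.8%, 46.8 to 58.6), and YAP-TFE3 in 9 of 21 (42.9%, 24.5 to 63.5) and 179 of 271 (66.1%, 60.2 to 71.4). The intervals overlap for both fusions there, and in the next bin for TAZ-CAMTA1 (11 of 44 TAZ4SA-only peaks, 14.6 to 39.4, and 96 of 247 shared peaks, 33.0 to 45.1).

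Sites of all 4 YAP and TAZ proteins were 270 of the shared TAZ4SA peaks (32.6%), and 25.6% of all TAZ4SA peaks overlapped both fusions. Neither fusion had a peak at 300 shared TAZ4SA peaks (36.2%) and at 259 TAZ4SA-only peaks (76.9%), against 47.9% of all TAZ4SA peaks. The 28 TAZ4SA-only peaks at which both fusions had a peak (8.31%), AJUBA and LATS2 among them, were absent from the YAP5SA list alone of the 4. Full-length TFE3 overlapped 87 YAP5SA-only peaks (2.97%, 2.41 to 3.65) and 9 shared YAP5SA peaks (1.09%, 0.576 to 2.07). Over all 3754 YAP5SA peaks the TFE3 overlaps were 96 (2.56%). Full-length CAMTA1 overlapped 7 YAP5SA-only and 1 TAZ4SA-only peaks. These were all its overlaps, 0.186% of 3754 YAP5SA and 0.0858% of 1166 TAZ4SA peaks. The EV IgG list, a control made from 2 libraries with IgG in place of the anti-Flag antibody, held 4 peaks on chromosomes. It overlapped 1 TAZ4SA-only peak and 0 of 829 shared TAZ4SA peaks, and 3 counts of 829, the upper limit that a count of 0 allows, would be 0.362%. With so few peaks it says little about background.

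Chromosome 5 held more YAP5SA-only peaks than any other chromosome. It carried 593 of 2931 YAP5SA-only peaks (20.2%, 18.8 to 21.7), 96 of 823 shared YAP5SA peaks (11.7%, 9.65 to 14.0) and 689 of all 3754 YAP5SA peaks (18.4%). Of the TAZ4SA peaks it carried 20 of 337 TAZ4SA-only (5.93%, 3.87 to 8.99), 100 of 829 shared (12.1%, 10.02 to 14.5) and 120 of all 1166 (10.3%). The YAP5SA-only peaks lay on both arms, with 180 in the first 50 Mb and 413 beyond. Shared pairs on chromosome 5 also leaned toward YAP5SA, which had the higher fold in 65 of 100 (65.0%, 55.3 to 73.6) against 235 of 729 (32.2%, 28.9 to 35.7) on the other chromosomes. The rank correlation of fold enrichment was 0.68 within the 100 pairs of chromosome 5 and 0.55 within the other 729. The local background moved with this. The TAZ4SA peaks on chromosome 5 had a median local background of 1.56 times the list's mean, and 60.5% of them one over 1.5 times. The YAP5SA peaks there had a median equal to the mean, the lowest value a recovered background takes, and 8.27% were over 1.5 times. Over the whole lists 79.3% of YAP5SA and 37.1% of TAZ4SA peaks stood at the mean. The YAP5SA median was at the mean on every chromosome except 13. The TAZ4SA median was also above it elsewhere, as on chromosomes 20 (1.33 times), 7 and 11 (each 1.22 times). A higher local background lowers the fold and the chance of a call, and its part in the chromosome 5 result was not tested. Without chromosome 5, 23.7% of YAP5SA peaks and 69.7% of TAZ4SA peaks were shared.

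**Figure D5:**
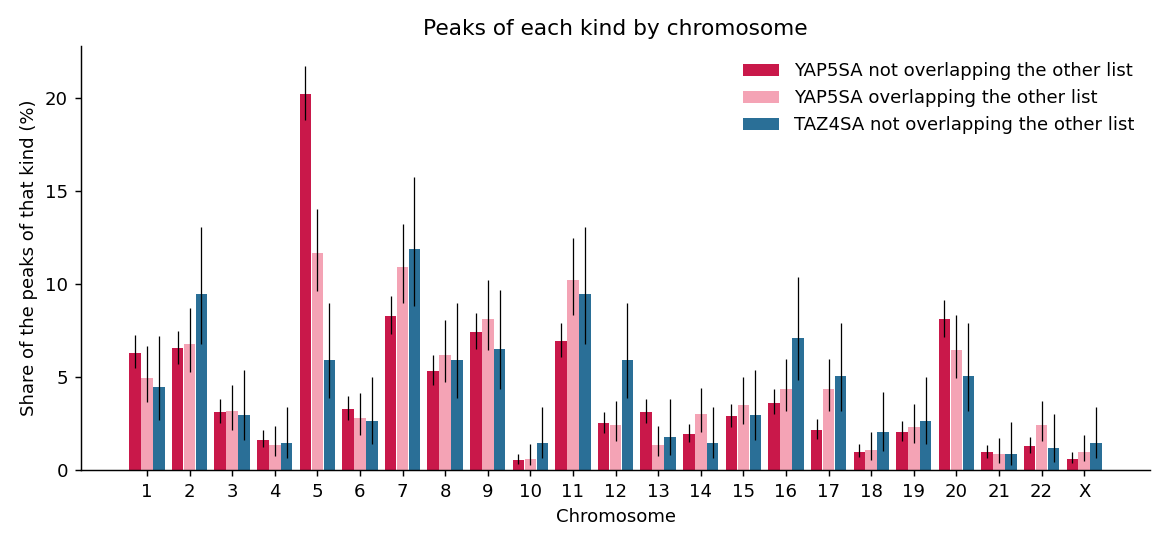
Share of all YAP5SA-only peaks (red), shared YAP5SA peaks (pink) and TAZ4SA-only peaks (blue) that lie on each chromosome (vertical axis, %; horizontal axis, chromosome), with 95% Wilson intervals. Chromosome 5 carries 20.2% of the YAP5SA-only peaks, 11.7% of the shared and 5.93% of the TAZ4SA-only peaks.

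YAP5SA-only peaks formed from 63.6% of the YAP5SA peaks on chromosome 17 to 86.1% on chromosome 5 and 89.3% on chromosome 13. Chromosome 13 held 92 YAP5SA-only peaks (3.14%, 2.57 to 3.83) and 11 shared YAP5SA peaks (1.34%, 0.748 to 2.38). The local background was raised there in both lists. Its median was 1.65 times the mean for the 17 TAZ4SA peaks and 1.23 times for the YAP5SA peaks. It was over 1.5 times the mean in 58.8% and 22.5% of them. TAZ4SA-only peaks formed from 16.7% of the TAZ4SA peaks on chromosomes 5 and 14 to 50% on chromosomes 10 and 12, and 10 TAZ4SA peaks in all lay on chromosome 10. On chromosome 12, 20 of 40 TAZ4SA peaks were TAZ4SA-only (35.2 to 64.8) against 28.9% over the list.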

How the data were processed

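The authors pooled the libraries of each construct, ran Atropos on the reads and BWA-MEM against GRCh37, removed multiply placed reads and greylisted regions, and called peaks with macs2 on fragments at q below 0.1. The deposited lists give the fold enrichment of each summit as a ratio to local background, and its p-value and q-value as −log10 values. From these, fragments and background were recovered, overlaps of at least 1 bp counted, and nearest summits paired. Ranks are by −log10 q. The recovery and overlap steps were tested on simulated data. Which control libraries set the background of each list is not given in the sources used here. No value column was left without a group.

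The members and lists were chosen with earlier results of these data known. Named were the 10 highest peaks in a single list by −log10 q and the 5 highest by fold, the 5 shared pairs of lowest rank sum, those of largest rank difference in each direction, and 28 target genes, of which 1 is not reported here by name. Sequences under the peaks were not analysed here, since the genome supplied was of another build. Computation was in Python (3.11.15), with scipy (1.17.1), pandas (2.3.3) and numpy (2.4.6). Plots were drawn with matplotlib (3.10.9).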

Additional observations from a re-analysis of the deposited data

How the results depend on the processing

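The 10 main results were recomputed under 48 alternatives, 4 of which were chosen after seeing the data. No ratio of medians fell below 1 and no rho below 0, and 32 values stayed within the 95% interval of the main value. With 50% reciprocal overlap 54.8% of TAZ4SA peaks and 17.0% of YAP5SA peaks were shared, and YAP5SA-only peaks overlapped TAZ-CAMTA1 in 8.44% and YAP-TFE3 in 22.8%. With the YAP5SA list reduced to its strongest 1166 peaks 41.8% of TAZ4SA and 41.3% of YAP5SA peaks were shared. Most TAZ4SA peaks were then not shared. The 2 shares had to come out nearly equal, since the lists were of equal length and matched close to 1 peak for 1 peak. The main shares of 71.1% and 21.9% likewise count nearly the same pairs, over 1166 and 3754 peaks. With the reduced YAP5SA list the median summit distance was 19 bp and rho was 0.44. The ratio of median fold enrichment of shared to other peaks was then 1.64 in TAZ4SA and 1.13 in YAP5SA. With YAP5SA peaks limited to the 3246 callable at the TAZ4SA background, 67.8% and 24.2% were shared. Measured by −log10 p, the ratios were 1.93 and 1.55. Without chromosome 5 (added later) 23.7% of YAP5SA peaks were shared. With fragments over mean coverage in place of fold enrichment (added later) rho was 0.63. A stricter q of 0.01 and gaps of up to 500 bp left every value computed under them within the 95% interval of the main value, where an approximate interval was computed for rho and for ratios of medians for this purpose alone. No paired analysis was possible because the libraries of a construct were pooled before peaks were called, and for the same reason none could be left out. Depth limits the lists unequally. A peak needed as few as 11 fragments in TAZ4SA and 40 in YAP5SA, the latter counted before scaling by 0.307. At the mean background these were 3.61-fold in TAZ4SA and 3.10-fold in YAP5SA.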
